A study of Mus musculus with 2 samples.

Results

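Treg-like cells made up 144 of the 2611 barcodes in 2 single-cell libraries of CD45+ leukocytes sorted from B16 melanomas. Regulatory T (Treg) cells are CD4+ T cells that restrain other immune cells. The cells were chosen by transcripts alone, in unique molecular identifiers (UMIs), the barcodes by which copies of 1 captured transcript are counted as 1. A barcode needed at least 2 UMIs of Cd3d, Cd3e and Cd3g together and at least 2 of Foxp3, Il2ra, Ikzf2 and Ikzf4 together. It could hold no UMI of Cd8a, Cd8b1, Ncr1, Klrb1c or Klre1, at most 3 of C1qa, C1qb and C1qc, and fewer than 10 of H2-Aa, H2-Ab1 and H2-Eb1. The rule took 84 of 1301 barcodes in the Nrp1L/L library and 60 of 1310 in the control library.

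The Nrp1L/L library came from Nrp1L/LFoxp3Cre-YFP mice, in which loxP sites flank part of Nrp1 and Cre is made where Foxp3 is transcribed. For the control library the mice were Foxp3Cre-YFP, so both groups carry the Cre and yellow fluorescent protein allele and differ in the floxed Nrp1 allele. All were female C57BL/6 mice aged 5 weeks, and tumours were taken on day 14 after inoculation, with 2600 cells loaded for each library. How many mice or tumours went into a library is not given in the sources used here. With 1 library per genotype, the genotype cannot be told apart from the mice, the tumours or the library. Every genotype comparison is therefore a size with no test, and its 95% intervals cover counting error only.

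Foxp3 is the transcription factor that holds Treg identity, and the protein of Il2ra (CD25) takes up interleukin-2. The Ikaros family factors Helios (Ikzf2) and Eos (Ikzf4) act beside Foxp3. Treg cells in tumours commonly carry receptors such as CTLA-4, OX40 (Tnfrsf4), GITR (Tnfrsf18), 4-1BB (Tnfrsf9) and ICOS, which tune activation, and neuropilin-1 (Nrp1), a co-receptor for semaphorins that helps keep them stable in inflamed tissue. Helios is also made by other T cells, among them unconventional and recently activated ones, so it does not mark Treg cells alone.

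The Nrp1L/L library held 8978610 UMIs at a median of 5334 per barcode, and the control library 13042802 at a median of 8079.5. Members were shallower than their libraries, with a median of 4409.5 UMIs (2726 to 16798) in Nrp1L/L and 5661 (3533 to 29936) in control. The libraries shared 3 barcode sequences, and no member was among them. Doublet scores would remove 1 Nrp1L/L member and 0 control members. Of the marker sets of other cell types, the monocyte and macrophage set gave most, 911 UMIs (2081 CPM) in Nrp1L/L and 466 UMIs (983 CPM) in control members, mainly Ly6c2 in a subset of T cells described further on. The basophil, mast cell and ILC2 set gave 209 and 29 UMIs. Neutrophil markers were all at 0 (5 of 5 genes), melanocyte markers gave 1 UMI in each library, and B and plasma cell markers gave 8 in Nrp1L/L and 10 in control. NK markers gave 4 UMIs in each. Summed dendritic cell markers stood at 82.2 CPM (counts per 1000000 UMIs of the members) in Nrp1L/L and 171 CPM in control, per cell from 0 to 6.15 and from 0 to 8.995 UMIs per 10000, with Flt3, Xcr1, Zbtb46 and Ccr9 at 0 in both.

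The markers that chose the members showed that Helios carried the choice. Ikzf2 (chromosome 1, 69531214 to 69687245, minus strand, GRCm38) had a UMI in 77 of 84 Nrp1L/L members and 56 of 60 control members. It gave 82.4% of the marker UMIs in Nrp1L/L and 79.1% in control, and it admitted 64 and 39 members without a UMI of the others. Il2ra (chromosome 2, 11642807 to 11693193, plus strand) had a UMI in 15 Nrp1L/L and 16 control members, and it admitted 4 and 3 without any other marker. Ikzf4 had a UMI in 5 and 8. Foxp3 (chromosome X, 7573644 to 7595245, plus strand) gave 5 UMIs in 3 Nrp1L/L members and 2 UMIs in 2 control members, while in CD8 T cells and C1q macrophages of both libraries it was at 0. Cd4, which the rule did not use, had a UMI in 26 Nrp1L/L members (31.0%) and 23 control members (38.3%). At the threshold, 25 Nrp1L/L and 15 control members had a marker sum of exactly 2, and 15 and 8 barcodes that met all other terms had a sum of 1. Of the members at 2, 16 of 25 in Nrp1L/L and 5 of 15 in control carried at least 2 UMIs of Ctla4 and Tnfrsf4 together, against 8 of 15 and 4 of 8 of the barcodes at 1.

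The members fell into cells with many Treg receptor transcripts and cells with almost none. Ctla4 (chromosome 1, 60887000 to 60915832, plus strand) and Tnfrsf4 (chromosome 4, 156013843 to 156016612, plus strand) together gave at least 10 UMIs in 37 of 84 Nrp1L/L members and 34 of 60 control members. They gave 0 UMIs in 36 and 16 members, 1 UMI in 2 and 5, and exactly 2 in 0 and 0. A division at 2 UMIs, chosen after these values were seen, put 46 Nrp1L/L members (54.8%, 43.5 to 65.7) and 39 control members (65.0%, 51.6 to 76.9) in a receptor-positive subset. The difference of -10.2 percentage points had an interval of -25.4 to 6.00. The other 38 and 21 members are called receptor-negative. Among receptor-positive members, Cd4 had a UMI in 26 of 46 in Nrp1L/L and 22 of 39 in control. Among receptor-negative members it had one in 0 of 38 in Nrp1L/L, where a floor of 3 counts allows up to 7.89% of cells with a UMI, and in 1 of 21 in control. That limit is on cells with a UMI and not on cells that express Cd4, since the receptor-negative cells are shallower and Cd4 was not found in all receptor-positive cells either. All Foxp3 and Ikzf4 UMIs lay in receptor-positive members. The subsets differ in depth, at medians of 5369.5 (Nrp1L/L) and 7678 (control) UMIs in the receptor-positive and 3950 and 4500 in the receptor-negative cells.

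**Figure D1:**
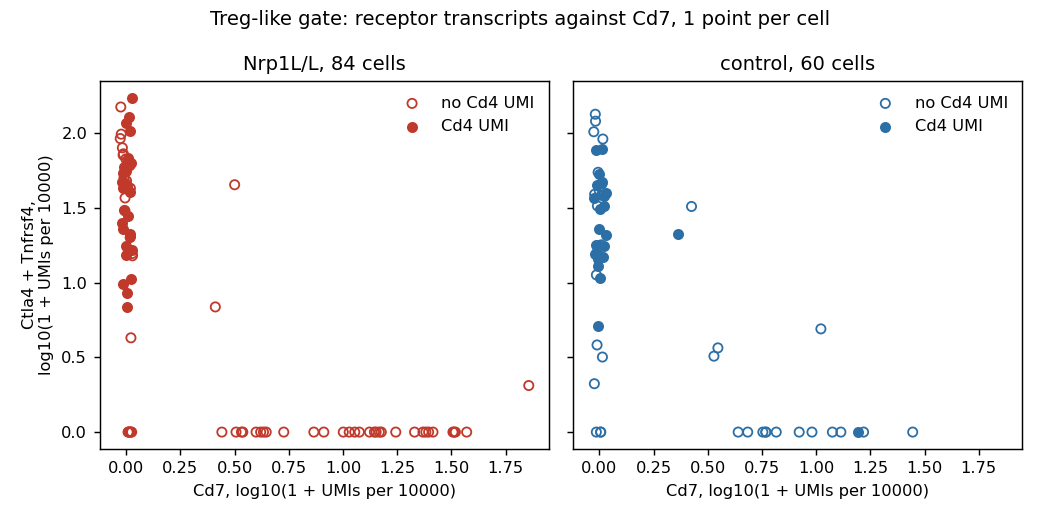
Each point is a Treg-like cell, with Cd7 across and Ctla4 plus Tnfrsf4 up, both as log10(1 + UMIs per 10000), Nrp1L/L left and control right, with a small random shift along the Cd7 axis, and filled points have a Cd4 UMI. Cells with many receptor transcripts have little or no Cd7, and filled points are confined to them except for 1 control cell.

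Receptor transcripts were found in more members than macrophages also when each cell was thinned to 2500 UMIs, a depth below that of every barcode. A Ctla4 UMI was found in 45 of 84 Nrp1L/L members (53.6%) and 39 of 60 control members (65.0%), and after thinning in 47.6% and 46.7%. C1q macrophages (at least 10 UMIs of C1qa, C1qb and C1qc and none of the CD3 genes), which should lack Ctla4, had one in 7.25% and 4.87% of cells at medians of 8226 and 10262.5 UMIs, and in 2.90% and 0.885% after thinning. Tnfrsf4 was found in 54.8% and 70.0% of members, 52.4% and 63.3% after thinning, against thinned shares of 2.90% and 2.65% in the macrophages. Receptor transcripts were not particular to the members. At least 2 UMIs of Ctla4 and Tnfrsf4 were found in 40 of 55 Nrp1L/L and 12 of 16 control cells of the conventional CD4 gate (the same gate with a marker sum of 0 and a Cd4 UMI). They were found in 27 of 86 and 15 of 32 cells of the CD3+ CD4- CD8- gate (a marker sum of 0 and no Cd4), and in 117 of 230 and 62 of 147 cells of the CD8 T gate (at least 2 UMIs of Cd8a and Cd8b1).

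Of the markers behind the label Treg-like, Cd4 was the one that neither the rule nor the subsets used, and it lay in receptor-positive cells except for 1 control cell. Foxp3, which the rule did use, was near 0 in receptor-positive cells and at 0 in receptor-negative ones. Il2ra had a UMI in 2 of 38 receptor-negative cells in Nrp1L/L and 2 of 21 in control. The label therefore rests almost wholly on Ikzf2 in the receptor-negative cells. Tnfrsf18, the receptor GITR, stood at 2204 CPM in receptor-positive Nrp1L/L cells and 559 CPM in receptor-negative ones, and in control at 1737 and 271 CPM. Nrp1L/L members had 1619 CPM of Tnfrsf18 and control members 1384 CPM, above the conventional CD4 gate at 1015 and 1090 CPM and the CD8 T gate at 380 and 493 CPM. Constant-region genes of the T cell receptor were not used here, so receptor-negative members could not be placed by alpha-beta or gamma-delta chains. Of the gamma-delta markers measured, Sox13 was at 0 and Il17a gave 4 UMIs in 1 Nrp1L/L cell and 30 UMIs in 2 control cells, all receptor-negative.

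Receptor-positive members carried a program of activated Treg and effector genes, given here as a description because the subsets were drawn on the same cells. Over 4716 genes with at least 20 UMIs, 923 (19.6%) stood at least 1.5-fold higher in receptor-positive than receptor-negative cells in both libraries, and 318 (6.74%) at least 1.5-fold lower in both. Tnfrsf9, the costimulatory receptor 4-1BB, stood at 1339 CPM in receptor-positive and 57.9 CPM in receptor-negative Nrp1L/L cells, a log2 ratio of 4.53 (3.59 to 5.67), and at 1095 and 87.5 CPM in control, a log2 ratio of 3.65 (2.75 to 4.72). Izumo1r, the folate receptor FR4 found on Treg and anergic CD4 T cells, stood at 677 CPM against 0 UMIs in Nrp1L/L and at 406 against 26.3 CPM in control. Ly6a (Sca-1), an interferon-responsive surface protein, stood at 3585 against 167 CPM in Nrp1L/L and 1976 against 385 CPM in control. These genes were ranked by the smaller of the libraries' interval bounds, so their like direction in both was fixed by that choice.

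Several of the genes ranked higher in receptor-positive cells came from few of them. Areg, a growth factor of tissue-repairing Treg cells, gave 172 UMIs in 12 Nrp1L/L and 56 UMIs in 8 control members, all receptor-positive. Il10, a suppressive cytokine, gave 109 UMIs in 13 Nrp1L/L members and 43 in 3 control members, also all receptor-positive. Lag3, an inhibitory receptor for MHC class II, was spread more widely, with UMIs in 28 of 46 Nrp1L/L and 28 of 39 control receptor-positive cells. It stood at 680 against 38.6 CPM in Nrp1L/L and 295 against 35.0 CPM in control. Klrg1, a receptor of terminally differentiated lymphocytes, had no UMI in the receptor-negative cells of either library. Il1r2, a decoy receptor for interleukin-1 reported in tumour Treg cells, stood at 152 CPM against 0 UMIs in Nrp1L/L and 195 against 8.75 CPM in control. Its UMIs lay in 13 Nrp1L/L and 17 control receptor-positive cells.

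Receptor-negative members stood higher in Ly6c2, Cd7, Cd160, Tcf7, Klf2, Bcl2 and Xcl1. Ly6c2, a surface protein of monocytes and of memory T cells, stood at 5246 CPM in receptor-negative and 117 CPM in receptor-positive Nrp1L/L cells, and at 3265 and 27.8 CPM in control. It supplied most of the monocyte and macrophage marker UMIs of these cells (816 of 838 in Nrp1L/L and 373 of 388 in control), while Csf1r, Cd68 and Adgre1 were at 0 in both. Cd7 stood at 1492 against 7.09 CPM in Nrp1L/L and at 639 against 25.0 CPM in control. Cd160, an NK and innate-like T cell receptor, stood at 289 CPM against 0 UMIs in Nrp1L/L and 438 against 8.34 CPM in control. Tcf7, a factor of naive and memory T cells, stood at 450 against 14.2 CPM in Nrp1L/L and 201 against 5.56 CPM in control. Klf2, which keeps T cells quiescent and recirculating, stood at 2141 against 191 CPM and at 1287 against 97.3 CPM. Bcl2, which protects from apoptosis, stood at 752 against 56.7 CPM and 534 against 19.5 CPM, and Xcl1, a chemokine for cross-presenting dendritic cells, at 591 against 49.6 CPM and 639 against 66.7 CPM. The NK receptor genes Klra7, Klrd1 and Klrk1 were also among the 15 ranked lower in receptor-positive cells, but Eomes gave only 4 UMIs in each library, and the other NK markers Klra4 and Klra8 gave 0.

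**Figure D2:**
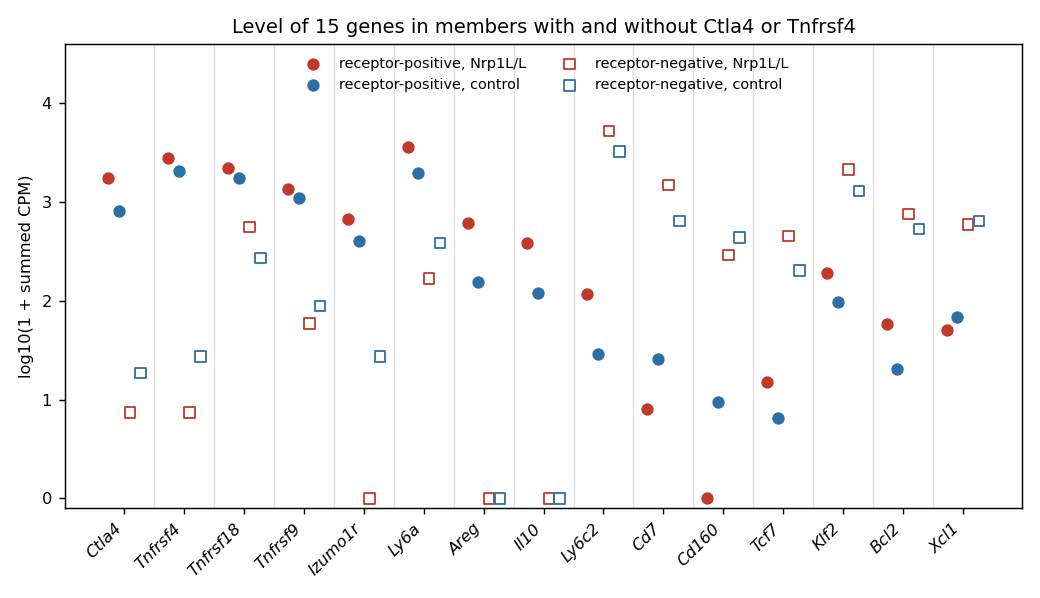
Summed level of 15 genes as log10(1 + CPM), circles for receptor-positive and squares for receptor-negative members, red for Nrp1L/L and blue for control. Genes from Ctla4 to Il10 sit higher in receptor-positive members of both libraries and genes from Ly6c2 to Xcl1 higher in receptor-negative ones.

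The receptor-negative members were also set against other CD3+ CD4- CD8- cells. Of those, 27 of 86 in Nrp1L/L and 15 of 32 in control are receptor-positive, so genes tied to receptor transcripts, such as Ly6a, stand lower in receptor-negative members by how these were chosen. Of 4228 genes, 218 (5.16%) stood at least 1.5-fold higher in receptor-negative members in both libraries, and 593 (14%) at least 1.5-fold lower. Ly6c2 at 5246 CPM was set against 1908 CPM in the CD3+ CD4- CD8- gate of Nrp1L/L, and 3265 against 1067 CPM in control. Cd7 at 1492 CPM was set against 314 CPM in Nrp1L/L, and 639 against 265 CPM in control. Ly6a stood lower, at 167 against 1248 CPM in Nrp1L/L and 385 against 2260 CPM in control, as did Cxcr6, a chemokine receptor of tissue-resident T cells, at 148 against 675 CPM and 193 against 896 CPM. Genes of proliferating cells were among the 15 ranked higher in receptor-negative members. Birc5, an inhibitor of apoptosis made in dividing cells, stood at 283 against 20.4 CPM in Nrp1L/L and 228 against 18.9 CPM in control. Its UMIs lay in only 2 receptor-negative members of Nrp1L/L (44 UMIs) and 2 of control (26 UMIs). Tubb5, a tubulin, stood at 919 against 355 CPM and 875 against 341 CPM. In Nrp1L/L 1 cell held 74.9% of the cell cycle UMIs of the receptor-negative members, and in control 1 cell held 46.0%. Ikzf2 separated these gates by construction and is not compared.

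Against cells of the conventional CD4 gate, members stood higher in Treg receptors and lower in the Treg transcription factor list. The summed receptors stood at 8191 CPM in members and 5116 CPM in conventional CD4 cells of Nrp1L/L, and at 6247 and 4963 CPM in control. The summed transcription factors, which do not include the genes of the rule, stood at 2510 and 3615 CPM in Nrp1L/L and at 2103 and 2878 CPM in control. The T helper 1 list differed in direction between libraries, at 13170.5 and 8764 CPM in Nrp1L/L and 6473 and 8042 CPM in control. It holds both Ccl4, ranked first among the genes higher in members (4728 against 1484 CPM in Nrp1L/L and 236 against 38.2 CPM in control), and Ifng, ranked first among the genes lower in members. The Nrp1L/L sum of the list rested in part on members 23 and 55, at 851 and 1027 UMIs per 10000. Member 23 alone held 24.8% of the list UMIs of Nrp1L/L members. The median over members was 63.4 per 10000 in Nrp1L/L and 53.3 in control, so the Nrp1L/L sum does not describe most members. Its direction against conventional CD4 cells cannot be read apart from members 23 and 55, and the sum without them is not given here. Member 23 is described further on. Of 5688 genes, 526 (9.25%) were at least 1.5-fold higher in members in both libraries, and 368 (6.47%) at least 1.5-fold lower. The control conventional CD4 gate held 16 cells, which limits this comparison. Tnfrsf9 stood at 884 CPM in members and 393 CPM in conventional CD4 cells of Nrp1L/L (log2 1.17, 0.87 to 1.48) and at 852 and 363 CPM in control (log2 1.23, 0.75 to 1.75). Lrrc32, which encodes GARP, the Treg docking protein for latent TGF-beta, gave 13 UMIs in Nrp1L/L members and 24 in control members, and 0 in the conventional CD4 gate of either library. Cd27, a costimulatory receptor, stood at 594 against 250 CPM in Nrp1L/L and 352 against 105 CPM in control. Ifng stood lower in members, at 151 against 802 CPM in Nrp1L/L (log2 -2.41, -2.83 to -2.01) and 61.2 against 325 CPM in control (log2 -2.41, -3.18 to -1.65). Cd200 and Slamf6, surface proteins of helper T cells, were also among the 15 ranked lower.

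The receptor-positive subset, set against the same conventional CD4 cells, was compared apart. Of 5126 genes, 468 (9.13%) stood at least 1.5-fold higher in receptor-positive members in both libraries, and 354 (6.91%) at least 1.5-fold lower. Tnfrsf9 stood at 1339 against 393 CPM in Nrp1L/L and 1095 against 363 CPM in control, and Izumo1r at 677 against 206 CPM and 406 against 143 CPM. Ifng stood at 202 against 802 CPM in Nrp1L/L and 80.6 against 325 CPM in control. Il10 did not stand the same way in both libraries, at 386 against 136 CPM in Nrp1L/L and 120 against 153 CPM in control.

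Against CD8 T cells, 4 of the 15 genes ranked higher in members (Areg, Izumo1r, Klrg1 and Il10) were also among the 15 ranked higher in receptor-positive cells. Of 8166 genes, 659 (8.07%) were at least 1.5-fold higher in members in both libraries, and 671 (8.22%) at least 1.5-fold lower. Areg stood at 393 CPM in members and 26.9 CPM in CD8 T cells of Nrp1L/L, and at 118.1 and 3.23 CPM in control. Cd81, a tetraspanin, stood at 160 against 2.99 CPM in Nrp1L/L and 321 against 42.6 CPM in control. Ebi3, a subunit of interleukin-35, and Maf, a factor for Il10 transcription, were among the 15 ranked genes, at 41.1 against 0.599 CPM and 121 against 7.78 CPM in Nrp1L/L and at 35.9 against 3.87 CPM and 59.1 against 7.75 CPM in control. The cytotoxic genes Gzmk, Gzma, Prf1 and Gzmb stood lower in members of both libraries. Gzmb, a granule protease, was the most abundant of these and stood at 1992 CPM in members and 3544 CPM in CD8 T cells of Nrp1L/L, and at 460 and 1780 CPM in control.

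Members were a larger share of all barcodes and a smaller share of their T cell gate in the Nrp1L/L library. They made up 6.46% of Nrp1L/L barcodes (5.18 to 7.93) and 4.58% of control barcodes (3.51 to 5.86), a difference of 1.88 percentage points (0.121 to 3.66). Counting only members with a Cd4 UMI, the difference was 0.243 points. The gate of CD3+ cells without Cd8 or NK genes held 240 Nrp1L/L barcodes (18.4%) and 116 control barcodes (8.85%). Members filled 35.0% (29.0 to 41.4) of it in Nrp1L/L and 51.7% (42.3 to 61.1) in control, a difference of -16.7 points (-27.3 to -5.78). When cells were thinned to 2500 UMIs before the rule was applied, which left 65 and 47 members, the first difference was 1.41 points and the second -7.14 points, so depth moves the share of the gate. Receptor-positive members alone made up 3.54% of Nrp1L/L and 2.98% of control barcodes, 0.56 points apart (-0.82 to 1.95).

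The targeted gene does not test the deletion here. Nrp1 (chromosome 8, 128358604 to 128503363, plus strand) gave 16 UMIs in 10 Nrp1L/L members and 21 UMIs in 9 control members, a log2 ratio of -0.28 (-1.31 to 0.73). Tags at the 3′ end can lie outside the floxed part, whose position is not given in the sources used here. After thinning, a Nrp1 UMI was found in 3.57% of Nrp1L/L and 6.67% of control members, against 13.0% and 15.9% of C1q macrophages, which can express the gene. Of its UMIs, 13 in Nrp1L/L and 20 in control lay in receptor-positive cells, so few were left for receptor-negative ones. Of the neuropilin and semaphorin list, 4 of 13 genes had at least 20 UMIs, and Akt1 was 1 of them at least 1.5-fold lower (log2 -0.76, -1.91 to 0.32). Sema4a, a ligand of neuropilin-1, had a log2 ratio of -0.35 (-1.51 to 0.76), and Vegfa and Kdr were at 0 in both libraries.

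Interferon-stimulated genes stood higher in Nrp1L/L Treg-like cells, by summed UMIs. Over all 4716 genes measured in members, 949 (20.1%) stood at least 1.5-fold higher in Nrp1L/L and 1009 (21.4%) at least 1.5-fold lower, with a median log2 ratio of -0.01. Of the type I interferon list, 13 of 15 measured genes stood at least 1.5-fold higher and 0 lower, with a median log2 ratio of 1.01. Isg15 (chromosome 4, 156199424 to 156200818, minus strand), a ubiquitin-like antiviral protein, gave 355 UMIs in 53 of 84 Nrp1L/L members and 120 UMIs in 25 of 60 control members, or 811 and 253 CPM (log2 1.68, 1.38 to 1.99). Irf7, the factor that amplifies interferon production, stood at 505 and 196 CPM (log2 1.36, 1.01 to 1.73). Ifit3 (chromosome 19, 34583531 to 34588731, plus strand), an RNA-binding antiviral protein, stood at 274 and 57.0 CPM (log2 2.27, 1.65 to 2.93). Bst2 and Ifit1 were the exceptions, at log2 ratios of 0.20 (-0.09 to 0.48) and 0.09 (-0.41 to 0.59).

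The promoters of Isg15, Ifit3 and Irf7 are shown because these genes stood higher together, and they were searched for the interferon-stimulated response element (ISRE), GAAA, any 2 bases and GAAA, on either strand. The windows run from 250 bases before to 50 after the RefSeq start site on GRCm38.p6, are written 5′ to 3′ on the gene's strand, and have matches in capitals. Isg15 lies at chr4:156200769-156201068 on the minus strand, Ifit3 at chr19:34583279-34583578 on the plus strand and Irf7 at chr7:141266375-141266674 on the minus strand.
Isg15: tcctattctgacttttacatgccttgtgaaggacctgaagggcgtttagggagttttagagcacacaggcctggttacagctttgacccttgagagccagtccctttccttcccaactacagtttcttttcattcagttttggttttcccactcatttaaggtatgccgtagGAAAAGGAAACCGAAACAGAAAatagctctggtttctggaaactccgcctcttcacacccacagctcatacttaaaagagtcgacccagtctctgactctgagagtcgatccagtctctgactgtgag
Ifit3: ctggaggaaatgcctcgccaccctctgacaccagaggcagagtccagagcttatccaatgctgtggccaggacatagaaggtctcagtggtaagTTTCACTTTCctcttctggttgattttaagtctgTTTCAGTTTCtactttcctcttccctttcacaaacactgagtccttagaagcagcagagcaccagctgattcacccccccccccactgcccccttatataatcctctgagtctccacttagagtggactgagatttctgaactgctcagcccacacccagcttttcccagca
Irf7: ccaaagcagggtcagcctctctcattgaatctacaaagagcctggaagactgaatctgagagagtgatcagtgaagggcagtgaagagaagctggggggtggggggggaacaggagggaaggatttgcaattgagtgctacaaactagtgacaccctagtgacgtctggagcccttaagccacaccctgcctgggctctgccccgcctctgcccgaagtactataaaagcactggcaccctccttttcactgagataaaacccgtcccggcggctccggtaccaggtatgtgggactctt
Isg15 had 3 overlapping matches, the first beginning 78 bases before the start site, Ifit3 had 2, at 156 and 122 bases before it, and Irf7 had none. Of the type I interferon list, 17 of 22 genes had a window and 8 of them held a match (47.1%), as did 11 of 20 in the interferon-gamma list (55.0%), against 1079 of 27025 genes with a window (3.99%). The gamma-activated site TTCNNNGAA, which reads the same on both strands, was found for 5 of 17 and 7 of 20 genes, against 9.55% of all genes. These matches describe the letters of the windows and were not measured as binding.

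The interferon difference was spread over cells but was smaller cell by cell. Summed type I interferon transcripts ran from 4.28 through a median of 33.1 to 231 UMIs per 10000 in Nrp1L/L members, and from 0 through 16.4 to 307 in control members, so the ranges overlapped. In receptor-positive members the medians were 27.8 in Nrp1L/L and 15.1 in control, and in receptor-negative members 46.9 and 17.5. In receptor-positive cells 12 of 14 genes stood at least 1.5-fold higher in Nrp1L/L, against 22.1% of 3902 genes, and in receptor-negative cells 9 of 11, against 23.4% of 1850 genes. With each cell weighted equally, 11 of 15 genes of all members stood higher and the median was 0.76, and in receptor-positive cells 7 of 14, at 0.49. Isg15 had log2 ratios of 0.76 with equal weights, 0.47 after thinning before the rule, 3.50 among members with a Cd4 UMI and 1.10 without 1 Nrp1L/L cell with basophil genes that is described further on. The same list stood higher in CD8 T cells (15 of 19 genes, median 1.05, against 17% of 7581 genes) and lower in the conventional CD4 gate (1 of 13 higher, 7 lower, median -0.65, against 25.3% higher and 17.9% lower of 2875 genes), while in the CD3+ CD4- CD8- gate 3 of 15 stood higher at a median of 0.10, against 23.8% of 3265 genes. The difference between gates was not tested. Isg15 was more abundant in C1q macrophages, at 1821 CPM in Nrp1L/L and 909 CPM in control, and the part of free RNA in the members' counts was not tested.

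**Figure D3:**
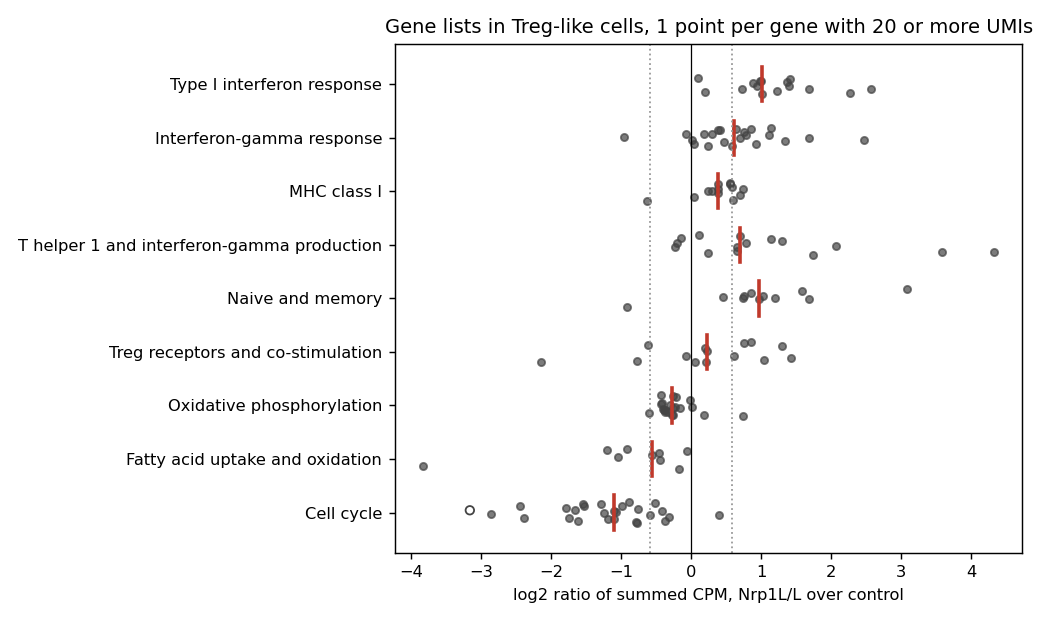
Log2 ratio of summed CPM, Nrp1L/L over control, for each gene with at least 20 UMIs in 9 lists, with list medians in red, dotted lines at 1.5-fold and an open circle for a gene with no UMI in Nrp1L/L, drawn at its bound. Type I interferon genes sit right of 0, at a median of 1.01, and all but 1 of the cell cycle genes sit left of it, at a median of -1.10.

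Genes induced by interferon-gamma stood higher by smaller amounts. Of the interferon-gamma response list, 11 of 22 measured genes stood at least 1.5-fold higher and 1 lower, against 20.1% and 21.4% of all genes. The median log2 ratio of the list was 0.61. With cells weighted equally, 6 of its genes stood higher and 1 lower, at a median of 0.30. The guanylate-binding proteins, which attack intracellular pathogens, led the list by summed UMIs. Gbp2 stood at 397 and 71.7 CPM (log2 2.47, 1.93 to 3.05), and 1 Nrp1L/L cell held 94 of its 174 UMIs. The ratio of Gbp2 was 1.53 without the top cell of each library and 1.27 after thinning. Gbp7 stood at 217 and 67.5 CPM (log2 1.68, 1.09 to 2.31) and Gbp4 at 187 and 73.8 CPM (log2 1.34, 0.76 to 1.957). Irf1, a transcription factor induced by interferon, stood at 215 and 97.0 CPM (log2 1.15, 0.62 to 1.69). Cxcl10, a chemokine for CXCR3+ T cells, went the other way, at 91.4 and 177 CPM (log2 -0.96, -1.54 to -0.40). In the MHC class I list 3 of 13 genes stood higher and 1 lower, near the 20.1% and 21.4% of all genes, and with cells weighted equally 0 stood higher and 1 lower. By summed UMIs H2-K1, which presents peptide to CD8 T cells, stood at 4447 and 2667 CPM (log2 0.74, 0.64 to 0.84). The summed interferon-gamma list had a log2 ratio of 0.41, and of 0.18 after thinning, 0.25 with cells weighted equally and 0.26 without cycling cells. In CD8 T cells 11 of 23 genes of the list stood higher, against 17% of genes there. Over all other barcodes 17 of 27 did, against 15.9%. The summed ratio was 0.40 in both, 0.08 in the conventional CD4 gate and -0.11 in the CD3+ CD4- CD8- gate. The summed MHC class I list stood at 0.48 in members, and at 0.49, 0.46, 0.09 and -0.15 in the same order.

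Cell cycle genes stood lower in Nrp1L/L members. Of 27 measured genes, 21 passed 1.5-fold downward and none upward, against 21.4% and 20.1% of all genes. Their median log2 ratio was -1.10 (-1.18 with cells weighted equally). Cdk1, the kinase that drives mitosis, gave 7 UMIs in 4 Nrp1L/L members and 55 UMIs in 14 control members (log2 -2.86, -4.24 to -1.72). Top2a, which untangles replicated DNA, gave 18 UMIs in 8 members and 65 in 15 (log2 -1.74, -2.58 to -0.97). Rrm2, which makes DNA precursors, gave 28 UMIs in 6 members and 105 in 12 (log2 -1.79, -2.45 to -1.18). Cenpa, a centromeric histone, was the measured gene with a positive ratio, at 276 and 209 CPM (log2 0.40, 0.01 to 0.80). After thinning, 9 of 84 Nrp1L/L members (10.7%, 5.02 to 19.4) and 19 of 60 control members (31.7%, 20.3 to 44.96) had at least 5 UMIs of the list, with 10 and 14 cells within 2 UMIs of that limit. By subset this was 8 of 46 and 15 of 39 receptor-positive cells and 1 of 38 and 4 of 21 receptor-negative cells. In the CD8 T gate it was 23.5% of Nrp1L/L and 40.1% of control cells, and in the conventional CD4 gate 18.2% and 12.5%. Control members were also the deeper ones, and after thinning the summed list had a log2 ratio of -1.36, against -0.98 before.

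**Figure D4:**
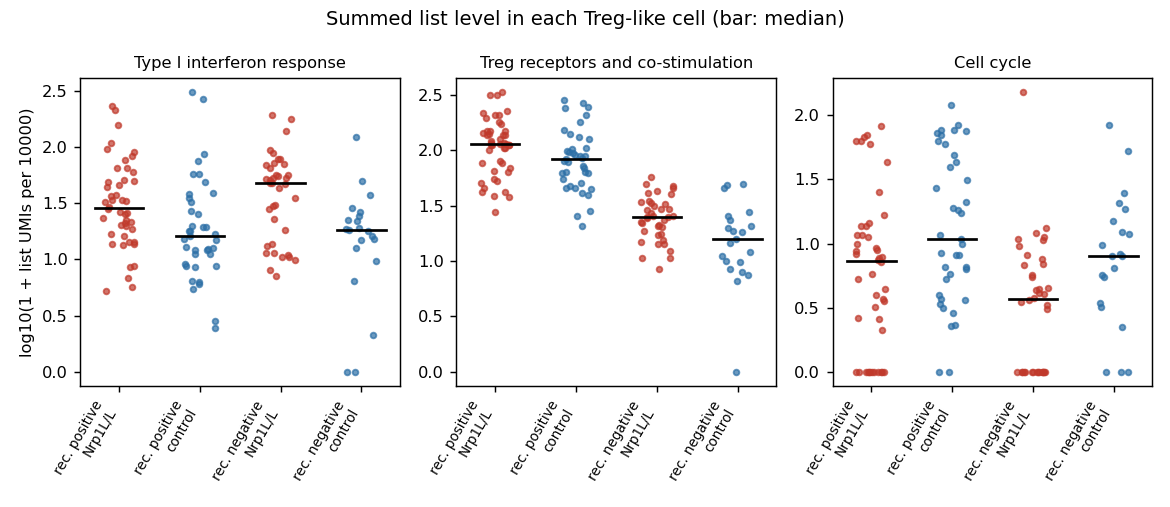
Summed UMIs of 3 gene lists in each Treg-like cell as log10(1 + UMIs per 10000), by subset (rec., receptor) with Nrp1L/L (red) left of control (blue) and a bar at each median. Type I interferon medians are higher in Nrp1L/L in both subsets, receptor medians differ between the subsets, which were split on Ctla4 and Tnfrsf4 of that list, and cell cycle medians are lower in Nrp1L/L.

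Treg receptors stood higher in Nrp1L/L by the summed UMIs but not evenly. Of 14 measured genes, 6 stood at least 1.5-fold higher and 3 lower, against 20.1% and 21.4% of all genes. Their median log2 ratio was 0.22. With cells weighted equally, 3 stood higher and 3 lower, at a median of -0.0008. The summed ratio of 0.39 was -0.00 after thinning, 0.18 with cells weighted equally and 0.17 without cycling cells. Icos, a costimulatory receptor of effector Treg cells, stood at 475 and 177 CPM, with UMIs in 43 of 84 Nrp1L/L and 26 of 60 control members (log2 1.42, 1.05 to 1.81). Its ratio was 1.44 after thinning and 1.39 with equal weights. Cd28, the main costimulatory receptor, stood at 612 and 249 CPM (log2 1.298, 0.98 to 1.62). Ctla4 stood at 1122 and 618 CPM (log2 0.86, 0.65 to 1.07), but its ratio was 0.33 after thinning, 0.45 with equal weights, 0.36 without cycling cells and 1.40 among members with a Cd4 UMI. Tnfrsf4 (log2 0.21, 0.06 to 0.35), Tnfrsf18 (0.23, 0.07 to 0.38) and Tnfrsf9 (0.05, -0.15 to 0.26) differed by less than 1.5-fold. Cd83, a marker of activated lymphocytes, stood lower at 29.7 and 131 CPM (log2 -2.14, -3.13 to -1.26), and Il1r2 also stood lower (log2 -0.61, -1.19 to -0.04).

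Inhibitory receptors and effector molecules differed in both directions. Lag3 stood at 452 and 232 CPM (log2 0.96, 0.62 to 1.31) and Havcr2, the receptor TIM-3, at 82.2 and 27.4 CPM (log2 1.58, 0.63 to 2.62). Pdcd1, which encodes PD-1, stood at 210 and 473 CPM (log2 -1.17, -1.54 to -0.81), with UMIs in 28 of 84 Nrp1L/L and 34 of 60 control members. In CD8 T cells Pdcd1 was instead 517 and 406 CPM. Of the inhibitory receptor list, 4 of 8 genes stood higher and 2 lower, and of the Treg effector list 4 of 10 higher and 1 lower, against 20.1% and 21.4% of all genes. With cells weighted equally, the effector list had 3 higher and 3 lower at a median of -0.02. Gzmb stood at 1992 and 460 CPM (log2 2.11, 1.90 to 2.34), with UMIs in 47 and 21 members, 1.66 with equal weights and 1.06 without cycling cells. Its difference lay in receptor-positive cells, at 2841 and 467 CPM, while receptor-negative cells had 450 and 438 CPM. Areg (log2 1.73, 1.29 to 2.20) and Il10 (1.46, 0.93 to 2.001) rested on few cells, and the ratio of Il10 was -0.10 after thinning and 3.47 among members with a Cd4 UMI. Lgals1, a galectin, stood at 2499 and 3253 CPM (log2 -0.38, -0.49 to -0.27).

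Among transcription factors, 7 of 21 measured genes stood at least 1.5-fold higher and 2 lower, against 20.1% and 21.4% of all genes, and with cells weighted equally 7 and 4. Maf stood at 121 and 59.1 CPM (log2 1.04, 0.35 to 1.75), Foxo1, which supports Treg homeostasis, at 68.5 and 27.4 CPM (log2 1.32, 0.34 to 2.38), and Nr4a1, induced by T cell receptor signals, at 249 and 133 CPM (log2 0.91, 0.44 to 1.38). Ezh2, a histone methyltransferase raised in dividing cells, stood lower at 79.9 and 190 CPM (log2 -1.25, -1.85 to -0.67). Batf, a factor of tissue Treg cells, stood at 217 and 192 CPM (log2 0.18, -0.25 to 0.61).

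Genes of T helper 1 cells stood higher in Nrp1L/L members by summed UMIs, most of all the chemokines Ccl4 and Ccl3. Of 15 measured genes, 10 passed 1.5-fold upward and none downward, against 20.1% and 21.4% of all genes, with a median log2 ratio of 0.70. The summed log2 ratio was 1.02 in members and 1.47 in the CD8 T gate. It was 0.12 in the conventional CD4 gate and 1.54 over all other barcodes. The Nrp1L/L sum in members rested heavily on members 23 and 55, at 851 and 1027 UMIs per 10000. Member 23 alone held 24.8% of the list UMIs there, and the ratio without these cells is not given here. Medians over all members were 63.4 in Nrp1L/L and 53.3 in control. With cells weighted equally, 9 of 15 genes stood higher and 0 lower, at a median of 0.67. Medians of the list per 10000 UMIs were 37.9 in Nrp1L/L and 49.9 in control receptor-positive members, and 91.9 and 58.0 in receptor-negative ones. Tbx21, which encodes T-bet, gave 31 UMIs in 23 of 84 Nrp1L/L and 8 UMIs in 6 of 60 control members (log2 2.07, 0.92 to 3.40), and its ratio was 0.53 after thinning. Ifng gave 66 UMIs in 21 members and 29 in 7 (log2 1.301, 0.65 to 1.98), 1.46 with equal weights, 1.85 after thinning and 0.60 at a marker sum of at least 3. Ccl4 and Ccl3, inflammatory chemokines, stood at 4728 and 236 CPM (log2 4.32, 4.05 to 4.61) and at 2243 and 188 CPM (log2 3.58, 3.26 to 3.91). Their UMIs lay in 41 and 14 Nrp1L/L members. Member 23, the cell with basophil genes described further on, held 935 of the 2070 Ccl4 UMIs, and member 55 held 444 of the 982 Ccl3 UMIs. The ratio without the top cell of each library was 4.11 for Ccl4 and 3.33 for Ccl3. Thinning gave 1.54 for Ccl4 and 1.53 for Ccl3. Ccl5, a chemokine of the same class, stood at 3678 and 4243 CPM (log2 -0.21, -0.30 to -0.11).

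Genes of naive and memory T cells and of homing also stood higher. Of the naive and memory list, 9 of 11 measured genes stood at least 1.5-fold higher and 1 lower (median 0.96), against 20.1% and 21.4% of all genes. With cells weighted equally 7 stood higher and 1 lower. Over all other barcodes 10 of 15 genes of the list stood higher and 2 lower (median 1.21), against 15.9% and 15% of genes there. Satb1, a chromatin organiser of T cell development, stood at 196 and 23.2 CPM (log2 3.08, 2.17 to 4.14), with UMIs in 28 and 7 members. In receptor-negative cells Satb1 gave 74 UMIs in 23 Nrp1L/L cells and 6 in 4 control cells. Tcf7 and Klf2 had log2 ratios of 1.68 (1.01 to 2.40) and 1.20 (0.95 to 1.47), while Ccr7, the lymph node homing receptor, had -0.91 (-1.65 to -0.21). Receptor-negative members, in which Tcf7 and Klf2 are abundant, were 45.2% of Nrp1L/L and 35.0% of control members, and the part of that share in these ratios was not tested. In receptor-positive cells alone 3 of 6 genes of the list stood higher and 1 lower, against 22.1% and 23% of genes there, and in receptor-negative cells 6 of 9 and 0, against 23.4% and 22.1%. Of the homing list, 9 of 15 genes stood higher and 1 lower in members, against 20.1% and 21.4% of all genes. With cells weighted equally this was 7 and 2, and over all other barcodes 7 of 19 stood higher and 4 lower. Ccr2, a receptor for monocyte chemokines also used by effector Treg cells, stood at 194 and 54.9 CPM (log2 1.82, 1.18 to 2.52), 1.55 with equal weights, 2.02 after thinning and 1.14 without cycling cells. Ccr8, a receptor of tumour Treg cells, was found in 12 and 10 members at a log2 ratio of 0.01 (-1.20 to 1.21).

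Some fatty acid and sterol genes stood lower in Nrp1L/L members. Of the fatty acid list, 4 of 9 measured genes passed 1.5-fold downward and none upward (median -0.56), against 21.4% and 20.1% of all genes. Fabp5, a fatty acid carrier, gave 9 UMIs in 4 Nrp1L/L members and 138 in 21 control members, or 20.6 and 291 CPM (log2 -3.82, -4.98 to -2.86). Control member 34, which also held genes of mature dendritic cells described further on, held 63 of the control UMIs. The ratio without the top cell of each library was -3.79, and after thinning it was -1.64. C1q macrophages and other barcodes also carry the gene, at 245 CPM over all other Nrp1L/L barcodes and 881 CPM over all other control barcodes. Etfb, of electron transfer from fatty acids, stood at 137 and 259 CPM (log2 -0.92, -1.39 to -0.46). Of the sterol and lipid list, 8 of 24 genes could be measured, with 3 lower and 1 higher, against 21.4% and 20.1% of all genes. Fdps, of the mevalonate pathway, stood at 57.1 and 150 CPM (log2 -1.39, -2.11 to -0.72), and Srebf2, the factor that switches that pathway on, gave 3 UMIs in 3 and 28 in 16 members (log2 -3.11, -5.47 to -1.41). Srebf1 gave 7 and 8 UMIs. The summed sterol and lipid list had a log2 ratio of -0.89 in members, -0.81 in CD8 T cells and -0.58 over all other barcodes. It was -0.70 in the conventional CD4 gate and -0.56 in the CD3+ CD4- CD8- gate. The summed fatty acid list stood at -0.92, -0.37, -0.71, 0.09 and -0.07 in the same order. Oxidative phosphorylation genes had a median of -0.27 with 1 of 21 past 1.5-fold each way, and glycolysis genes a median of 0.05 with 2 of 17 higher and 1 lower. By subset, 3 of 16 glycolysis genes stood higher and 1 lower in receptor-positive cells (summed log2 ratio 0.12), while 0 of 8 stood higher and 6 lower in receptor-negative cells (summed -0.80), against 22.1% of the 1850 genes measured there.

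The genes that ranked highest by genotype came largely from single cells. Of the 20 genes ranked by the bound of the interval nearest 0, 10 in each direction, 10 had at least 90% of their UMIs in 1 cell. Member 23 of the Nrp1L/L library, with 16798 UMIs the deepest there, held all 120 UMIs of Mcpt8 (a basophil protease), all 99 of Hdc (which makes histamine) and all 43 of Il13. It also held 233 of 238 UMIs of Il4, 173 of 174 of Il6, 186 of 188 of Ccl9, 158 of 160 of Osm and 62 of 64 of Ifitm1. Of the 2070 Ccl4 UMIs of Nrp1L/L members it held 935. The cell had 35 UMIs of the CD3 genes and 24 of Ctla4 and Tnfrsf4. Another 19 Nrp1L/L barcodes and 0 control barcodes had at least 10 UMIs of Mcpt8. Summed basophil, mast cell and ILC2 markers stood at 477 CPM in Nrp1L/L and 61.2 CPM in control members, per cell from 0 to 99.4 and from 0 to 8.53 UMIs per 10000, with Fcer1a and Ms4a2 at 0 in both. Without that cell, Ccl9 and Osm had log2 ratios of -1.64 and -1.64, against 4.86 and 4.63 with it.

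In control, member 34 held all 36 UMIs of Ccl22, 29 of 34 of Ccl17 and 215 of 364 of Cst3, genes of mature dendritic cells, beside 14 CD3 UMIs. It also held 63 of the 138 Fabp5 UMIs of control members. Member 60 held 39 of 42 UMIs of Ccl1, a ligand of CCR8, and 62 of 72 of Penk, which encodes enkephalin. Member 29 held 29 of 30 UMIs of Il17a and 14 of 21 of Cd163l1, genes of interleukin-17-producing gamma-delta T cells. Polr2h, an RNA polymerase subunit, was spread over more cells, with 4 UMIs in 3 Nrp1L/L and 50 in 19 control members (log2 -3.53, -5.46 to -2.08), while Stard4, a sterol carrier, had 3 UMIs in 1 and 59 in 12 members (log2 -4.18, -6.50 to -2.57), 36 of them in 1 control cell.

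**Figure D5:**
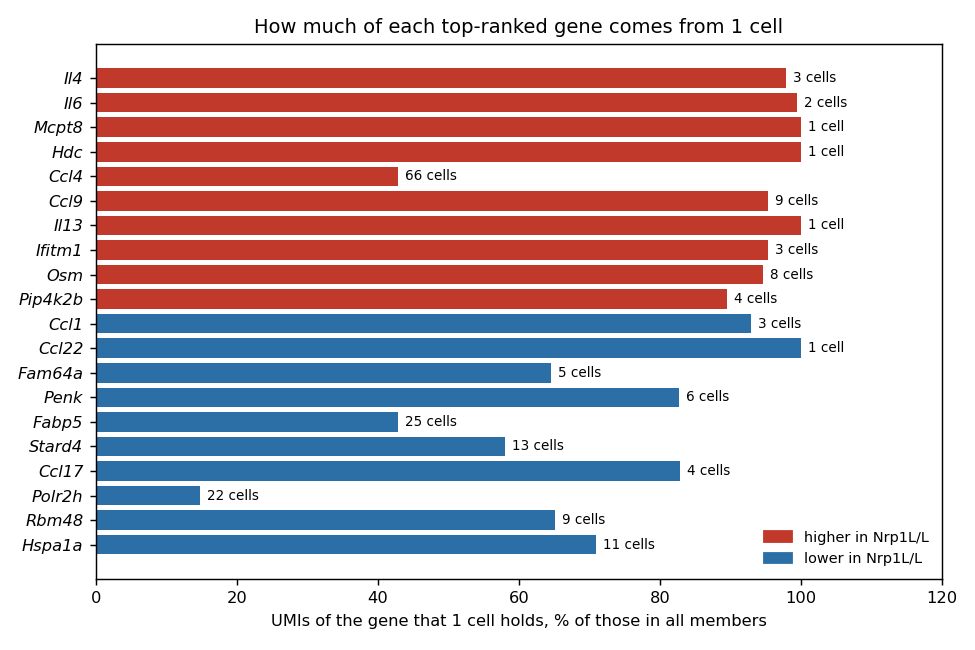
For each of the 20 top-ranked genes, the bar gives the share of its UMIs over all 144 members that the highest cell holds, with the number of cells that have a UMI beside it, red for genes higher and blue for genes lower in Nrp1L/L. Mcpt8, Hdc, Il13 and Ccl22 come wholly from 1 cell, while the top cell of Polr2h holds 14.8% of its UMIs.

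A ranking kept to genes found in at least 10 members, chosen after these values were seen, put other genes first. Besides Ccl4, Ccl3, Gzmb, Gbp2 and Satb1 it named Gzma, a granule protease, with 47 UMIs in 14 Nrp1L/L and 2 in 2 control members (log2 4.67, 2.74 to 7.76). Nrp1L/L member 58 held 23 of those 47 UMIs. Over all other barcodes Gzma stood at 1786 CPM in Nrp1L/L and 354 CPM in control (log2 2.34). Ccl4, Ccl3, Gzmb, Gbp2 and Satb1 also stood higher there, at log2 ratios of 1.13, 1.26, 1.69, 1.26 and 1.80. Acd, a telomere protein, gave 44 UMIs in 20 members and 5 in 2 (log2 3.25, 1.92 to 4.94), and Asxl2, a chromatin factor, 29 in 14 and 1 in 1, a log2 ratio of 4.97 (2.38 to 10.3). Over all other barcodes their log2 ratios were 0.38 and 1.23. Among the lower genes it named Gins2, of the replication fork, with 8 UMIs in 5 and 62 in 16 members (log2 -2.84, -4.11 to -1.77), and Cxcl2, a neutrophil chemokine, with 6 UMIs in 6 and 43 in 23 (log2 -2.73, -4.25 to -1.49). Cxcl2 stood at 259 CPM over all other Nrp1L/L barcodes and 1959 CPM over all other control barcodes, a log2 ratio of -2.92 there. In receptor-negative members Lgals1 stood at 212 and 1820 CPM (log2 -3.10, -3.68 to -2.57) and Ms4a4b, a T cell surface protein, at 2102 and 490 CPM (log2 2.10, 1.69 to 2.54). Over all other barcodes Lgals1 had a log2 ratio of -0.09 and Ms4a4b of 1.75.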

How the data were processed

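Per the labels' protocols, CD45+ cells were sorted from B16 tumours and made into 3′ droplet libraries. Per the submitters' processing notes, Cell Ranger 1.3 and the mm10 genome were used; other settings are not given in the sources used here. The deposited values are whole-number UMI counts for 27998 genes in each listed barcode. No cell was filtered. UMIs were summed over member cells per library and scaled to CPM, with exact Poisson intervals; log2 ratios are Nrp1L/L over control with exact conditional binomial intervals, shares have Clopper-Pearson and share differences Newcombe intervals, all at 95%. Genes needed 20 UMIs over both libraries, at least 1.5-fold was counted as higher or lower, and 3 counts served as the floor for 0. No count model was fitted, because each genotype has 1 library.

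The members, marker lists and gene lists were chosen with earlier results of these data known. Named genes were list members, the 10 higher and 10 lower genes with at least 30 UMIs by the interval bound nearest 0, and 15 each way between gates; ribosomal, mitochondrial, receptor segment and rule genes were left out. Where another group of genes is named, the text says so. Gene coordinates are those of GENCODE vM21 on GRCm38, which is the assembly of mm10. Doublets were scored with Scrublet in scanpy 1.11.5; its own threshold called 0.231% of Nrp1L/L barcodes, so the highest 27 were left out there in the alternative, and 8 control barcodes. Scaling alternatives used TMM in edgeR 4.0.16 and median-of-ratios factors. The fold calls were tested on simulated data. Python 3.11.15, numpy 2.4.6, scipy 1.17.1 and pandas 2.3.3 were used. Some results are not reported here.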

Additional observations from a re-analysis of the deposited data

Results flagged for a closer look

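Basophil, mast cell and ILC2 markers gave 209 UMIs in the Nrp1L/L Treg-like cells, above the 29 UMIs in control ones, in genes that no comparison of the gene lists rests on alone. Of these, 167 lay in 1 cell, member 23, which also held CD3 and Treg receptor transcripts. Without it the counts of genes at least 1.5-fold higher and lower were 958 and 995. Whether that barcode held more than 1 cell was not tested beyond Scrublet, whose calls left the cell in.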

How the results depend on the processing

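No paired analysis was possible because each genotype has 1 library. Of 4716 genes, 949 stood higher and 1009 lower. The settings below tested other numbers of genes, which moves the counts. Thinning to 2500 UMIs gave 430 and 339 of 2048 genes, a minimum of 10 UMIs 1536 and 1579 of 6507, a minimum of 50 UMIs 420 and 425 of 2513, and no minimum 2200 and 2224 of 8498. Members with a Cd4 UMI gave 670 lower of 2918 and members without cycling cells 622 lower of 3533. The interferon-gamma sum of 0.41 was 0.47 with a Cd4 UMI, 0.18 thinned, 0.26 without cycling cells and 0.25 with cells weighted equally. The cell cycle sum of -0.98 was -1.18 at a marker sum of at least 3, -0.61 with a Cd4 UMI, -1.36 thinned and -1.33 without each gene's top cell. The Treg receptor sum of 0.39 was 0.59 with a Cd4 UMI, -0.0021 thinned, 0.17 without cycling cells and 0.18 with cells weighted equally. Ccl9 reversed to -1.64 without the cell with basophil genes and -1.21 without its top cell, Osm to -1.64 and -0.89, and Il10 to -0.098 at a marker sum of at least 3 and -0.096 thinned. The cause of the moves in sums and genes was not tested. The member shares kept their direction under the gating alternatives run, the share of all barcodes between 0.243 points (members with a Cd4 UMI) and 2.42 points, and the share of the gate between -17.4 and -7.14 points. TMM and median-of-ratios scaling moved log2 ratios by 0.010 and 0.013. Equal weighting, the receptor split and leaving out the cell with basophil genes were chosen after seeing the data. Depth limits genes of few UMIs most, since control members are deeper.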
